A study of Danio rerio with 8 samples.

Results

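The mitochondrial genome of zebrafish encodes the catalytic core of the respiratory chain, and 6 of its transcripts are described here in cells sorted from regenerating retinas: *mt-co1*, *mt-co2* and *mt-co3* of cytochrome c oxidase (complex IV), *mt-cyb* of the cytochrome bc1 complex (complex III), and *mt-atp8* and *mt-atp6* of ATP synthase (complex V). They were taken by their Ensembl transcript identifiers, in the same order ENSDART00000093606, ENSDART00000093609, ENSDART00000093613, ENSDART00000093625, ENSDART00000093611 and ENSDART00000093612, and checked against their lengths, and all 6 were found among the 52122 transcripts quantified in each library. Their entries hold 1551, 691, 786, 1141, 165 and 684 bases in the order above. These lengths equal those of COX1, COX2, COX3, CYTB, ATP8 and ATP6 in the RefSeq annotation of GRCz12tu, which was used for names and neighbours only.

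The respiratory chain passes electrons from complex III through cytochrome c to complex IV and pumps protons across the inner mitochondrial membrane, and ATP synthase uses the return flow of protons to make ATP. Most subunits of these complexes are encoded in the nucleus, while a small hydrophobic core is made inside the mitochondrion from mitochondrial mRNAs. Those mRNAs are cut from long precursor transcripts, mostly at the tRNAs that lie between them, and receive poly(A) tails, so that oligo(dT) priming also captures them. Photoreceptors are among the cells richest in mitochondria, and macrophages can shift between oxidative and glycolytic metabolism.

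Adult *mpeg1*:GFP (gl22) fish of 10 to 12 months, in which a macrophage promoter drives GFP, received ouabain in 1 eye at an estimated final concentration of 2 µM, a toxin that destroys inner retinal neurons. At 7 days after injection, the retinas of 32 fish were combined 8 at a time into 4 pools, and each pool was sorted into GFP+ cells (microglia and macrophages by design) and GFP− cells (all other sorted retinal cells), which gave 4 GFP+ and 4 GFP− libraries. All 8 libraries thus came from lesioned eyes, and the comparison is between sorted populations, not between lesion and control. Cell type markers of the populations were not analysed here, since no table used here pairs the transcript identifiers with nuclear genes. In sorted bulk samples, more cells of a mitochondria-rich type and more mitochondrial mRNA per cell cannot be told apart.

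Library totals lay between 7316619 and 27727554 estimated counts, and every value of the 6 members was a whole number in every library (within 1e-06). CPM are estimated counts divided by the library total and multiplied by 1000000. Counts of a member ranged from 641 for *mt-atp8* in the GFP− library of pool 3 to 597289 for *mt-co3* in the GFP− library of pool 2. The 95% Wilson interval of a CPM value reached at most 8.05% to either side of it, and at most 2.35% for members other than *mt-atp8*. These intervals cover counting error only, because amplified copies cannot be recognised without molecular identifiers. The GFP− library of pool 3 stood apart from the others in depth and composition. It had the lowest total, 7316619 against at least 17489304 in the other libraries, and the transcript with the most reads, which is none of the 6, took 36.7% of its counts against 17.1% to 30.1% elsewhere. The fitted values and the summed share are given with and without that library, a choice made after seeing the data. That library was also the GFP− library whose summed share lay below all GFP+ libraries, so leaving it out raises the GFP− mean.

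Together the 6 members took 2.50, 2.42, 2.64 and 3.52% of all counts in the GFP+ libraries of pools 1 to 4, and 4.56, 7.39, 1.70 and 3.85% in the GFP− libraries. The share was 2.77 ± 0.509% in GFP+ and 4.38 ± 2.35% in GFP− cells (SD, n = 4 libraries each), and 5.27 ± 1.87% in GFP− cells without pool 3. The GFP− libraries of pools 1, 2 and 4 all lay above the 4 GFP+ libraries, while the GFP− library of pool 3 lay below all of them, so the populations overlapped. Without the transcript that took the most reads, the members' share in that library was 2.68%, still the lowest of the 8, against 3.28% to 9.40% in the other 7. The summed share is a description and carries no test.

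**Figure D1:**
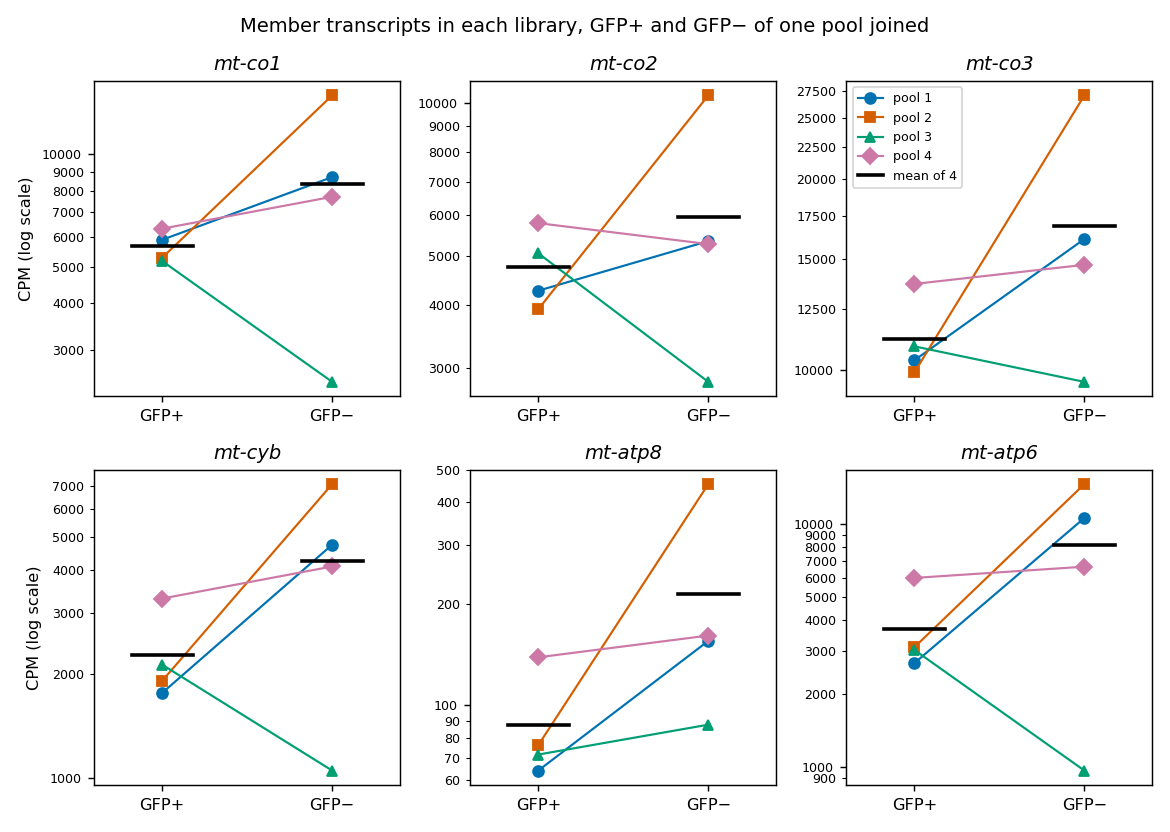
CPM on a log axis of each of the 6 members in GFP+ and GFP− libraries, with the 2 libraries of a pool joined by a line and the mean of 4 libraries as a black bar. Lines climb from GFP+ to GFP− in pools 1 and 2 for all 6 members and descend in pool 3 for all but *mt-atp8*.

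GFP+ and GFP− counts were tested against each other by edgeR (quasi-likelihood) over the 13379 transcripts that passed a filter on low counts, and adjusted p-values (Benjamini-Hochberg FDR) are over all of these. No member was called enriched in either population at an FDR below 0.01 with a log2 fold change beyond 2, against 1.50% of all tested transcripts. No member passed an FDR below 0.1 either, a level that 9.64% of tested transcripts reached in either direction and 4.99% reached with GFP− higher. At an unadjusted p below 0.05, 1 of the 6 passed, *mt-atp8*, with GFP− higher, against 8.54% of tested transcripts in that direction. DESeq2's Wald test also called 0 of the 6 at either FDR (adjusted p of 0.405 to 0.930), against 10.7% of the transcripts it gave an adjusted p at the stricter level and 23.6% at the looser. Limma on the deposited TPM values, as log2(TPM + 1), called 0 of the 6 as well (adjusted p of 0.203 to 0.763), against 5.11% and 19.5%. All 6 fitted log2 fold changes of GFP+ over GFP− were below 0, with a median of -0.65, while 54.5% of all tested transcripts were below 0, with a median of -0.19. Among the 939 tested transcripts of at least 100 CPM on average, which include the 6 members, edgeR called 96 at the stricter level. At an FDR below 0.1, 207 of the 939 passed with GFP+ higher and 80 with GFP− higher. At an unadjusted p below 0.05 (edgeR), 132 had GFP− higher. The log2 fold change was below 0 for 439 of the 939, and its median was 0.13. The intervals given below show how large a difference these libraries leave possible for each member under the model and scaling of each fit.

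Cytochrome c oxidase, the terminal enzyme of the chain, is represented by 3 members, whose products form its catalytic core. *mt-co1*, whose protein holds the heme and copper centre that reduces oxygen, stood at 5909.9, 5292, 5186 and 6330.3 CPM in GFP+ libraries of pools 1 to 4 and at 8699, 14392, 2463 and 7704 CPM in GFP− libraries. The GFP+ libraries differed little among themselves, while the GFP− libraries held both the highest value, in pool 2, and the lowest, in pool 3. The edgeR log2 fold change was -0.43 (standard error 0.362, 95% interval from -1.22 to 0.36, edgeR adjusted p = 0.702). Without the GFP− library of pool 3, an alternative chosen after seeing the data, it was -0.64 (standard error 0.183, 95% interval from -1.05 to -0.24, edgeR adjusted p = 0.0846), and without pool 2 it was 0.016 (standard error 0.420, 95% interval from -0.92 to 0.95, edgeR adjusted p = 0.999).

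*mt-co2* encodes the subunit that takes electrons from cytochrome c. It stood at 4261, 3916, 5053 and 5795 CPM in GFP+ and 5340.1, 10365, 2814 and 5268 CPM in GFP− libraries, again with pool 2 highest and pool 3 lowest among the GFP− libraries. It had the smallest fitted difference of the 6, with a log2 fold change of -0.23 (standard error 0.309, 95% interval from -0.90 to 0.45, edgeR adjusted p = 0.870). It was -0.34 (standard error 0.227, 95% interval from -0.85 to 0.16, edgeR adjusted p = 0.586) without the GFP− library of pool 3 and 0.29 (standard error 0.328, 95% interval from -0.44 to 1.02, edgeR adjusted p = 0.892) without pool 2. In pool 4 the GFP+ library was the higher, at a log2 ratio of 0.14, and the populations overlapped with or without pool 3.

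*mt-co3* encodes the core subunit without a metal centre and was the most abundant member in all 8 libraries, at 10375, 9928, 10913 and 13682 CPM in GFP+ and 16102, 27097, 9594 and 14665 CPM in GFP− libraries. It ranked between 2 and 4 among all transcripts of every library. The GFP− libraries of pools 1, 2 and 4 lay above all GFP+ libraries, and the GFP− library of pool 3 lay just below them. Its log2 fold change was -0.50 (standard error 0.246, 95% interval from -1.04 to 0.04, edgeR adjusted p = 0.356), the narrowest interval of the 6, and -0.57 (standard error 0.177, 95% interval from -0.97 to -0.18, edgeR adjusted p = 0.0894) without that library. Without pool 2 it was -0.09 (standard error 0.268, 95% interval from -0.69 to 0.51, edgeR adjusted p = 0.980).

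*mt-cyb* encodes cytochrome b, the only subunit of complex III made in the mitochondrion, which carries electrons across the membrane between its b-type hemes. Its level was 1764, 1912, 2129 and 3308 CPM in GFP+ and 4735, 7091, 1052 and 4096 CPM in GFP− libraries. In pools 1 and 2 the GFP− level was 2.68 and 3.71 times the GFP+ level, whereas in pool 3 the GFP+ level was 2.02 times the GFP− level. Over all libraries the log2 fold change was -0.80 (standard error 0.412, 95% interval from -1.70 to 0.10, edgeR adjusted p = 0.393). Without the GFP− library of pool 3 it was -1.03 (standard error 0.226, 95% interval from -1.53 to -0.52, edgeR adjusted p = 0.0356), and without both libraries of pool 3 the adjusted p was 0.0808 (edgeR). Leaving out pool 2 gave -0.34 (standard error 0.503, 95% interval from -1.47 to 0.78, edgeR adjusted p = 0.932).

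The 2 ATP synthase members had the largest fitted differences and also the widest intervals. In vertebrates they share an mRNA, so their values are not 2 separate observations. *mt-atp6*, whose protein forms the proton channel with the rotor ring, stood at 2672, 3106, 3028 and 5979.6 CPM in GFP+ and 10541, 14519.9, 968 and 6650.4 CPM in GFP− libraries. Its GFP− values spanned a 15.0-fold range, the widest of any member in either population. The log2 fold change was -1.04 (standard error 0.541, 95% interval from -2.22 to 0.13, edgeR adjusted p = 0.395), and it was -1.33 (standard error 0.271, 95% interval from -1.93 to -0.72, edgeR adjusted p = 0.0255) without the GFP− library of pool 3 and -0.52 without pool 2. *mt-atp8*, a short membrane subunit of the stator, had the lowest CPM of the members in all 8 libraries, at 64.0, 76.2, 71.4 and 139 CPM in GFP+ and 155, 454, 87.6 and 161 CPM in GFP− libraries. It was the only member with a higher GFP− level in all 4 pools, as were 18.8% of all tested transcripts. Its log2 fold change was -1.21 (standard error 0.538, 95% interval from -2.39 to -0.04, edgeR adjusted p = 0.279), and it was -1.35 (standard error 0.490, 95% interval from -2.44 to -0.26, edgeR adjusted p = 0.147) without the GFP− library of pool 3 and -0.47 without pool 2. The GFP+ library of pool 4 held the highest GFP+ value of all 6 members, not of the ATP synthase members alone. For all 6 it lay close to the GFP− library of the same pool, at log2 ratios of -0.31 to 0.14.

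Each pool was sorted into both populations, and GFP+ and GFP− libraries with the same replicate number in their titles were taken as from the same pool. Of the 24 ratios of CPM (6 members in 4 pools), 18 had the GFP− library higher. In pools 1 and 2, all 6 members were higher in GFP− cells, against 58.1% and 57.3% of all tested transcripts. In pool 3, only *mt-atp8* was higher in GFP− cells, against 49.0%, and in pool 4 all but *mt-co2* were, against 53.1%. Among the 939 transcripts of at least 100 CPM, 52.8, 52.0, 35.4 and 43.1% were higher in GFP− cells in pools 1 to 4. The median log2 ratio of the 6 was -0.96, -1.67, 0.93 and -0.18 in pools 1 to 4, and over the 939 transcripts of at least 100 CPM it was -0.13, -0.05, 0.73 and 0.20. In pool 3 the abundant transcripts as a whole thus also stood higher in the GFP+ library. The ratios were largest in pool 2, where *mt-atp8* reached a log2 ratio of -2.57, and smallest in pool 4, where they lay between -0.31 and 0.14. When pool entered the edgeR model as a replicate block, the fit gave 0 members below an FDR of 0.1, against 3.63% of tested transcripts with GFP− higher. The median log2 fold change of all tested transcripts, of any abundance, in that fit was -0.53, and none was taken over those of at least 100 CPM. *mt-co1*, *mt-co2* and *mt-co3* lay above that median, at -0.25, -0.12 and -0.43. *mt-cyb*, *mt-atp6* and *mt-atp8* lay below it, at -0.61, -0.67 and -1.01.

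**Figure D2:**
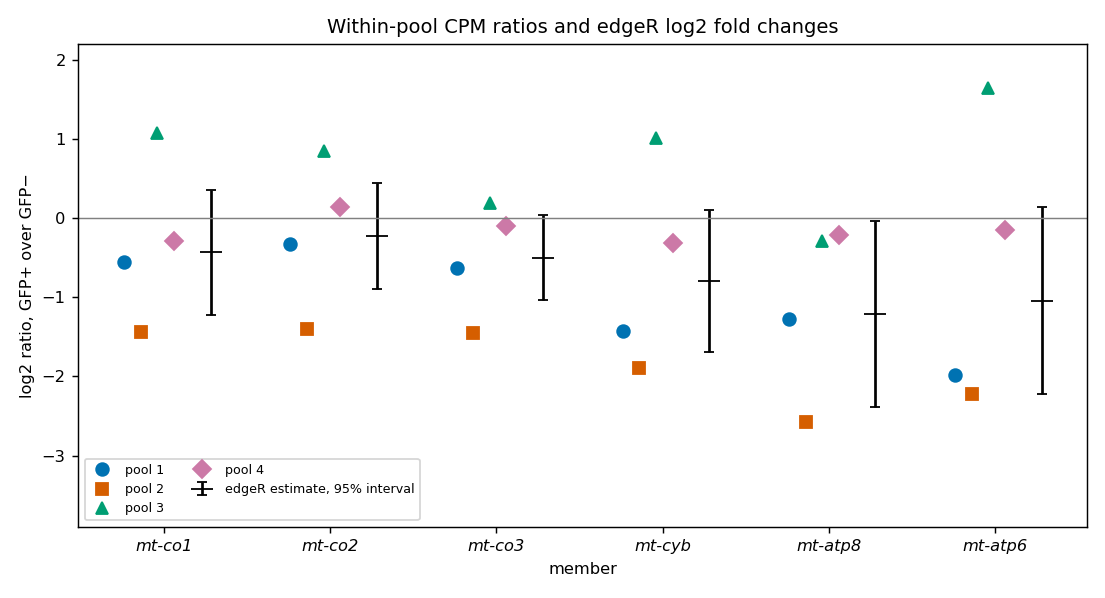
Log2 ratio of GFP+ over GFP− CPM of each member in pools 1 to 4 (coloured symbols), beside edgeR's log2 fold change over all 8 libraries with its 95% interval (black). The symbols of pool 2 lie lowest for all 6 members, and those of pool 3 lie above 0 for all but *mt-atp8*.

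How many members passed a looser threshold depended on pool 3 and on the filter. With no filter on low counts, 3 of the 6 passed an FDR below 0.1 with GFP− higher, *mt-co3*, *mt-cyb* and *mt-atp6*, against 3.33% of tested transcripts. Leaving out only the GFP− library of pool 3 was chosen after seeing the data. It removes the library that went the other way for all members but *mt-atp8*. In that fit, 4 of the 6 members passed an FDR below 0.1, all with GFP− higher, against 6.30% of tested transcripts. These were *mt-co1*, *mt-co3*, *mt-cyb* and *mt-atp6*, and the GFP− libraries of pools 1, 2 and 4 then did not overlap the 4 GFP+ libraries for these members or for *mt-atp8*, as for 15.4% of tested transcripts. With all 8 libraries, none of the 6 had all GFP− libraries above all GFP+ libraries, against 9.90%. When both libraries of pool 3 were left out, 2 members passed, *mt-cyb* and *mt-atp6*, against 2.65%. With pool 3 left out and the pool as a replicate block, a fit chosen after seeing the data, 4 passed, against 3.15%, and *mt-atp6* had the lowest adjusted p, 0.00941 (edgeR), at a log2 fold change of -1.30. The median of all tested transcripts in that fit was -0.65, so the members' values stood less far from it than from 0. In the fit without the GFP− library of pool 3 the median was -0.13. The percentages and medians given here cover transcripts of any abundance, and none over those of at least 100 CPM was taken for these fits. The fits also leaned on pool 2. Without it, no member had an adjusted p below 0.892 (edgeR), and the fitted values of *mt-co1* and *mt-co2* were above 0. No member was called at an FDR below 0.01 with a log2 fold change beyond 2 under any of the 12 alternatives run. The depth of the GFP− library of pool 3 and the share of its leading transcript are given above, and their part in these values was not tested.

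**Figure D3:**
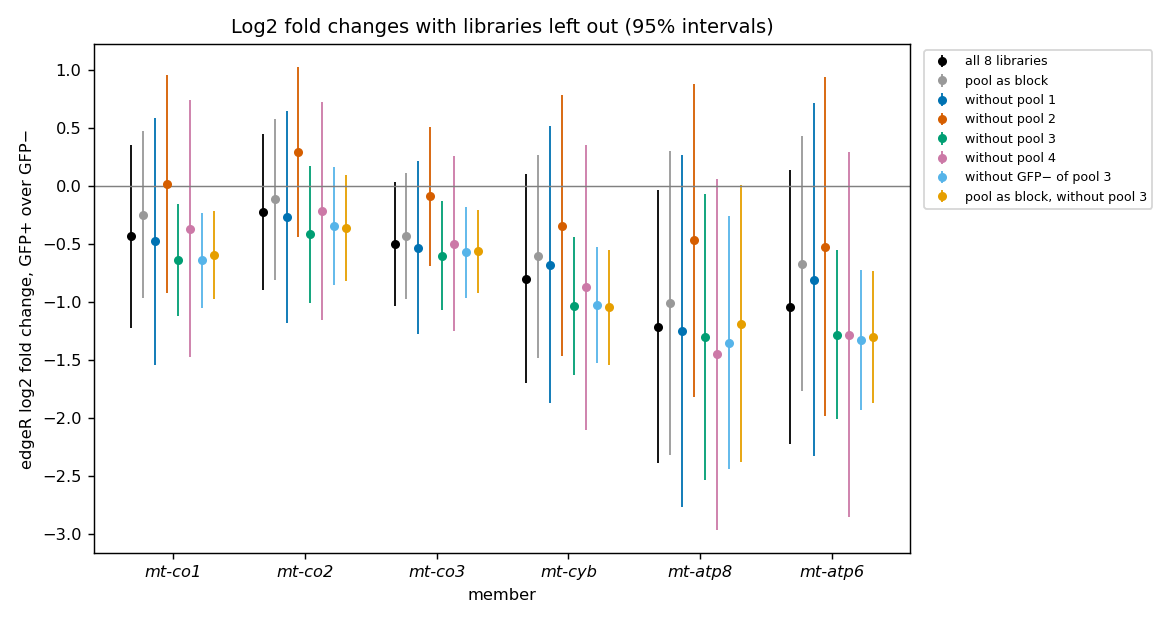
edgeR log2 fold changes of GFP+ over GFP− with 95% intervals for each member, from all 8 libraries and with a pool, or the GFP− library of pool 3, left out or with the pool as a block. For all members but *mt-co2* the interval without the GFP− library of pool 3, a fit chosen after seeing the data, lies wholly below 0. The estimates lie nearest to 0 or above it where pool 2 is left out.

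For all 6 members the SD of log2 CPM was smaller in GFP+ than in GFP− libraries, with or without pool 3 among the GFP− libraries. The difference was not tested, and other measures of spread were not compared without pool 3. The SD of log2 CPM between libraries was 0.136 for *mt-co1* in GFP+ cells, the smallest of the 6, and 0.523 for *mt-atp6*, the largest. In GFP− cells it lay between 0.615 for *mt-co3* and 1.75 for *mt-atp6*, and without the library of pool 3 between 0.410 and 0.878. Without that library the populations were nearly equal in SD for *mt-cyb*, at 0.410 in GFP− and 0.404 in GFP+ cells. For *mt-atp6* the SD was then 0.566 and 0.523, and the gap was wider for the other members. The median over all transcripts of at least 100 CPM was 0.463 in GFP+ and 0.759 in GFP− libraries, and 0.417 in GFP− libraries without pool 3.

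The order of the members was read on 2 scales. QuantSeq primes at the poly(A) tail and reads the 3′ end of a transcript, so CPM need no length term, but reads that end beyond an entry's last base would not be counted to it, and levels per kilobase of entry are given as well. On the CPM scale, *mt-co3* led in 8 of 8 libraries, at 1.76 to 3.90 times the level of *mt-co1*, the next by mean. The order of *mt-co1*, *mt-atp6* and *mt-co2* was not the same in all libraries, with *mt-co1* above *mt-atp6* in 6 and *mt-atp6* above *mt-co2* in 4 of 8. *mt-cyb* lay below *mt-co2* and above *mt-atp8* in 8 of 8. Per kilobase, *mt-co3* and *mt-atp8* again stood first and last in 8 of 8 libraries, and *mt-co2* stood above *mt-co1* in 8 of 8. The CPM of *mt-cyb* was 12.0 to 30.5 times that of *mt-atp8*, and per kilobase the ratio was 1.74 to 4.41.

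The share that each member took of the reads of all 6 does not depend on the library total. *mt-co3* took 41.4, 41.0, 41.4 and 38.8% of the members' reads in GFP+ libraries of pools 1 to 4, and 35.3, 36.7, 56.5 and 38.0% in GFP− libraries. The GFP− library of pool 3 thus stood well above the other 7 libraries in this share. *mt-atp6* took 10.7, 12.8, 11.5 and 17.0% in GFP+ and 23.1, 19.6, 5.70 and 17.3% in GFP− libraries, with the highest share in the GFP− library of pool 1 and the lowest in that of pool 3. *mt-co2* took 17.0, 16.2, 19.2 and 16.4% in GFP+ and 11.7, 14.0, 16.6 and 13.7% in GFP− libraries. Its share was higher in the GFP+ library in each of the 4 pools, although the populations overlapped. How often such shares of other transcripts kept 1 direction in all 4 pools was not counted. *mt-co1* took 14.5% to 23.6%, *mt-cyb* 6.20% to 10.6% and *mt-atp8* 0.256% to 0.614% over the 8 libraries.

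**Figure D4:**
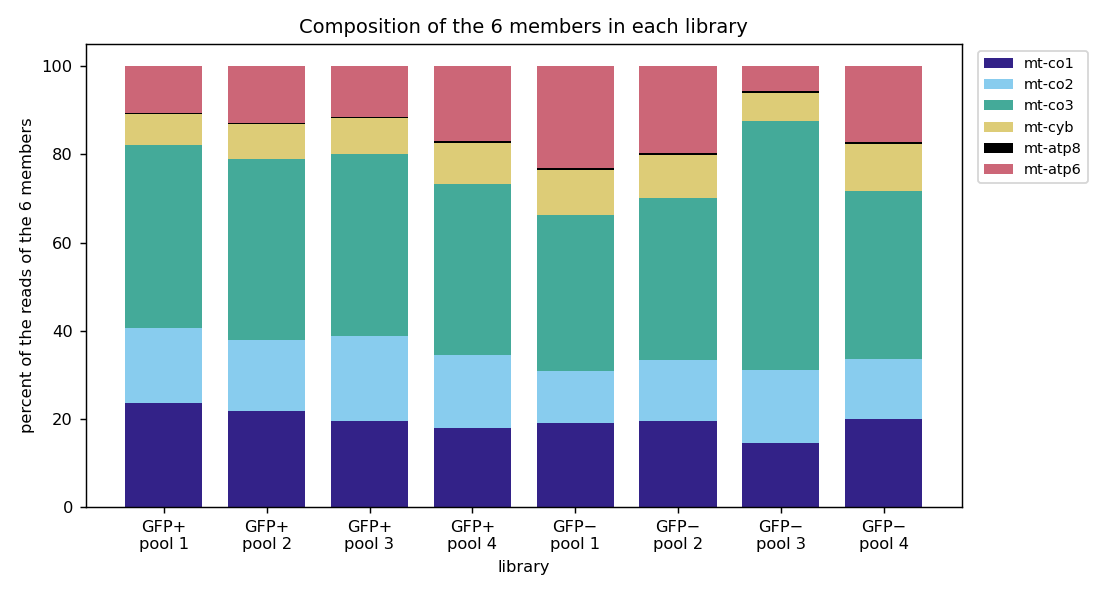
Percent of the reads of the 6 members that each member took in each of the 8 libraries, stacked to 100. *mt-co3* takes the largest part in every library and 56.5% in the GFP− library of pool 3, where *mt-atp6* takes 5.70%.

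Of the 15 ratios between pairs of members, 2 had GFP+ and GFP− libraries that did not overlap. These were the ratio of *mt-co2* to *mt-co3*, at 0.394 to 0.463 in GFP+ and 0.293 to 0.383 in GFP− libraries, and that of *mt-co2* to *mt-atp8*, at 41.7 to 70.8 and 22.8 to 34.4. Among pairs of transcripts of at least 100 CPM on average, 44.5% had ratios that did not overlap between the populations. Pairs of members share transcripts, so the 15 ratios are not independent of each other.

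In the RefSeq annotation, ATP8, ATP6 and COX3 follow each other with no tRNA gene between them, while tRNA genes flank the other 3 members. In vertebrates ATP8 and ATP6 share an mRNA, and their coding sequences overlap. Because reads come from the 3′ end, the counts of *mt-atp8* and *mt-atp6* cannot be read as levels of separate mRNAs. The same limit holds for the rank of *mt-atp8* among the members. The reads of *mt-atp6* were 41.7, 40.8, 42.4 and 43.1 times those of *mt-atp8* in GFP+ libraries of pools 1 to 4 and 67.9, 32.0, 11.0 and 41.3 times in GFP− libraries. This ratio was nearly constant over the GFP+ libraries, at 42.0 ± 0.974, and varied over the GFP− libraries, at 38.1 ± 23.6 (SD, n = 4 each). The reads of *mt-co3* were 3.88, 3.20, 3.60 and 2.29 times those of *mt-atp6* in GFP+ and 1.53, 1.87, 9.91 and 2.21 times in GFP− libraries. In pools 1, 2 and 4 this ratio was lower in the GFP− library than in any GFP+ library, and in pool 3 it was the highest of all 8. No percentage over other ratios was taken without the GFP− library of pool 3.

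**Figure D5:**
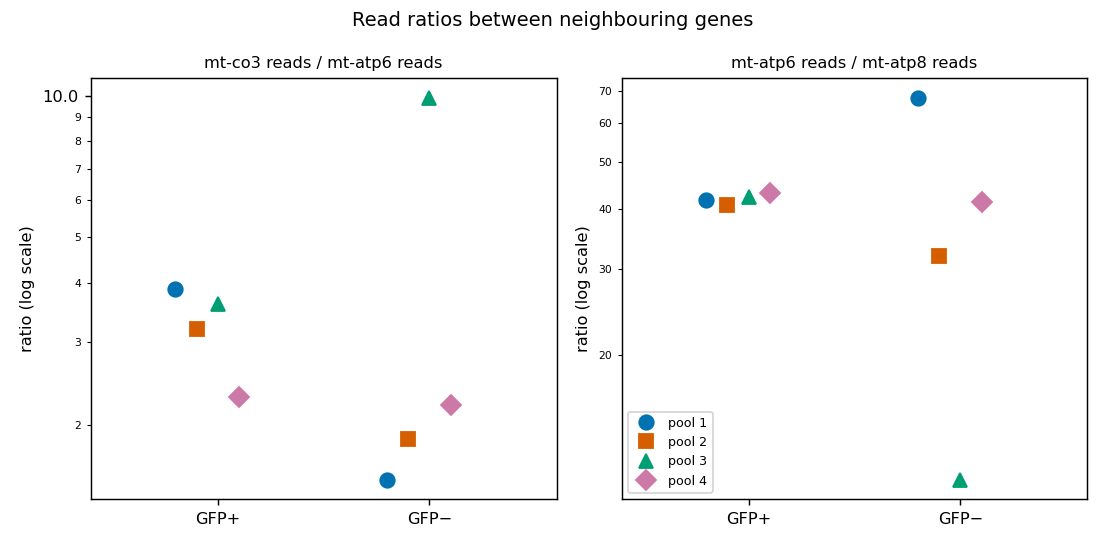
Ratios of reads between members whose genes lie next to each other, *mt-co3* over *mt-atp6* (left) and *mt-atp6* over *mt-atp8* (right), in each library on log axes. The 4 GFP+ libraries lie between 40.8 and 43.1 for the ratio of *mt-atp6* to *mt-atp8*, and the GFP− library of pool 3 lies at 9.91 for that of *mt-co3* to *mt-atp6* and at 11.0 for the other.

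A further 7 transcripts have the lengths of the 7 complex I genes of the mitochondrial genome in RefSeq (13 protein genes with 13 distinct lengths), and were matched by length, not by a table of identifiers. Together they took 0.445, 0.532, 0.578 and 0.826% of counts in GFP+ and 1.03, 1.98, 0.493 and 0.974% in GFP− libraries of pools 1 to 4. As for the 6 members, all 7 fitted log2 fold changes were below 0, with a median of -0.86. Of all tested transcripts 54.5% were below 0, and of the 939 of at least 100 CPM, 439 were. At an FDR below 0.01 with a log2 fold change beyond 2, 0 of the 7 were called, against 1.50% of tested transcripts. At an FDR below 0.1, 1 passed, with GFP− higher (edgeR adjusted p = 0.0868), against 4.99% of tested transcripts in that direction. With the pool as a replicate block that transcript no longer passed (edgeR adjusted p = 0.127). Without the GFP− library of pool 3, all but ENSDART00000093623.3 (edgeR adjusted p = 0.873) passed, at edgeR adjusted p of 0.0316 to 0.0963. In that fit, chosen after seeing the data, 6.30% of tested transcripts passed with GFP− higher. Without pool 2, none of the 7 had an adjusted p below 0.566 (edgeR). The 6 members had 5.63, 4.56, 4.56 and 4.26 times the reads of these 7 in GFP+ libraries and 4.45, 3.74, 3.44 and 3.96 times in GFP− libraries. The ratio was higher in the GFP+ library of each of the 4 pools, although the ranges overlapped. How often ratios between other transcripts kept 1 direction in all 4 pools was not counted.

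The levels of the members followed each other across the 8 libraries, which share depth and composition. Pearson's r of log2 CPM over these 8 libraries lay between 0.772, for *mt-co1* with *mt-atp8*, and 0.988, for *mt-cyb* with *mt-atp6*, with a median of 0.913 over the 15 pairs. Over all 8 libraries, *mt-atp8* was more closely correlated with *mt-co3* (0.971) than with its neighbour *mt-atp6* (0.798). In the GFP− library of pool 3 the ratio of *mt-atp6* to *mt-atp8* reads was 11.0. It was 32.0 to 67.9 in the other GFP− libraries and 40.8 to 43.1 in the GFP+ libraries. The part of that 1 library in these r values was not tested. For the 7 transcripts matched by length, r with the mean of the 6 members lay between 0.839 and 0.984. Among 7230 other tested transcripts of at least 10 CPM on average, the closest in pattern to that mean were ENSDART00000164663.1 (r = 0.939) and ENSDART00000018972.7 (r = 0.935), over the same 8 libraries. With so many candidates and 8 libraries these values are descriptions only, and no gene name was paired with either identifier here.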

How the data were processed

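QuantSeq 3′ mRNA libraries were made from 4 GFP+ and 4 GFP− samples after FACS on GFP and scatter. Per the labels and the study's methods, the authors quantified reads with Salmon 0.9.1 against Ensembl release 90 transcripts (GRCz10) without length correction. They deposited estimated counts and TPM for each transcript. The effective length is 100 for all 52122 transcripts, so the deposited TPM are the same as CPM, each count divided by the library total. Reads carry no molecular identifiers, and each entry was counted only as far as its annotated bases reach.

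Estimated counts were rounded and fitted with edgeR 4.0.16 in R 4.3.3 (TMM scaling, filterByExpr, quasi-likelihood test, no replicate block), with Benjamini-Hochberg adjustment over 13379 transcripts. A transcript was called at an FDR below 0.01 with a log2 fold change beyond 2, and an FDR below 0.1 was also read. Spread and correlations used log2 of CPM plus 0.1. By the study's methods, each pool was sorted into both populations. Libraries were paired here by the replicate number in their titles only. Deviations of paired libraries from their population means correlated at r of -0.0035 to 0.0651 (mean 0.0311), with the lowest value in pool 3. For libraries of unlike number, r was -0.0438 to 0.0100 (mean -0.0103), a range that holds the value of pool 3. Deviations within a population sum to 0, so the 2 means are tied to each other. The mean for unlike numbers is therefore no separate evidence on the pairing. No 2 libraries of a population agreed within sampling noise (chi-square per degree of freedom of 205 to 351). Pools are separate groups of fish. Without the block, p-values measure the spread between libraries of the same population. With the block, they measure the spread of the within-pool differences.

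Alternatives were DESeq2 1.42.0 (size factors in edgeR, and its Wald test), no filter on low counts, the pool as a replicate block, each pool left out, removal of the most abundant transcript, and limma 3.58.1 on log2(TPM + 1). Leaving out the GFP− library of pool 3, and pool 3 with the block, were added after seeing the data. The edgeR fit was tested on simulated data with log2 changes of 4 in either direction. It recovered 200 of 200 changed transcripts at a dispersion between libraries of 0.1 and 0 at a dispersion of 1. These dispersions were set and not estimated from the data, and changes as small as those of the members were not simulated. A fitted log2 fold change within 2 cannot be called at any dispersion, so 0 calls do not show that levels are equal. All 6 members are named, with the transcripts most correlated with their mean (2 of 5 printed, as identifiers only). The members and lists were chosen with earlier results of these data known. Lists of nuclear-encoded subunits, assembly factors and cell type markers were not analysed here, because no table used here pairs the transcript identifiers with genes. Names and neighbours of mitochondrial genes came from RefSeq (GRCz12tu), and no coordinates or sequences were taken from it.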

Additional observations from a re-analysis of the deposited data

Results flagged for a closer look

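Of 32 sets of 4 libraries, 5 held a library far from the other 3 (Dixon's test, 95% level, at which chance gives about 5% of sets). In GFP+ cells both were ATP synthase members in pool 4, *mt-atp8* at 138.8 CPM against 64.0 to 76.2 CPM in pools 1 to 3, and *mt-atp6* at 5979.6 CPM against 2672 to 3106 CPM. The other members also had their highest GFP+ value in pool 4. In GFP− cells all 3 were in pool 3. There *mt-co1* took 14.5% of the members' reads against at least 19.1% in the other pools, and *mt-co3* took 56.5% against 35.3% to 38.0%. The ratio of *mt-co3* to *mt-atp6* reads was 9.91 in that library and 1.53 to 2.21 in the other GFP− libraries. The sets share libraries, and *mt-atp8* and *mt-atp6* cannot be read as separate mRNAs, so the sets are not independent of each other.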

How the results depend on the processing

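No member was called enriched under any of the 12 alternatives, which for the 6 members made 72 results, of which 57 kept their direction and their side of an FDR of 0.1, 13 came past it with the same direction, 2 turned and 0 were lost. The number of members past an FDR of 0.1 was 0 in the fit reported and 3 with no filter on low counts (*mt-co3*, *mt-cyb* and *mt-atp6*, edgeR adjusted p of 0.0210, 0.0289 and 1.18e-05, against 3.33% of transcripts with GFP− higher), where the cause was not tested. It was 4 without the GFP− library of pool 3, 4 with the replicate block and pool 3 left out, and 0 to 2 when each pool was left out in turn. With the replicate block alone it was 0, and the block changed no call of the 6. Leaving out each pool in turn, the log2 fold change ranged from -0.64 to 0.016 for *mt-co1* and from -0.42 to 0.29 for *mt-co2*, with the upper value of each from the fit without pool 2 (0.016 and 0.29). The log2 ratio of the mean summed share of GFP+ libraries to that of GFP− libraries was -0.66. It ranged from -0.90 to -0.22 when a pool was left out, the latter without pool 2. All 18 within-pool ratios with GFP− higher had the same sign after TMM scaling. Over all transcripts, calls numbered 201 in the fit reported, 850 with no filter, 1930 by DESeq2's Wald test, 683 by limma, 355 with the replicate block and pool 3 left out, and 15 to 72 when each pool was left out. The median of all transcripts was -0.19 in the fit reported and -0.37 on log2(TPM + 1) without TMM scaling. The spread between GFP− libraries exceeded the counting error for every member.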
